A study of Bos taurus with 90 samples.

Results

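The 200 genes described here were the most enriched in cumulus cells over mural granulosa cells in antral follicles of Bos taurus cows. They were selected on measured values, by a rule applied to 26 follicles. A gene had to average 10 CPM (read counts scaled to 1000000 a library) or more in cumulus cells (CCs), with an oocyte mean of at most 0.25 times that. This left 2158 of the 27270 genes counted, and the 200 with the highest mean paired log2 ratio, log2 of (CC CPM + 1) over (mural granulosa cell CPM + 1) within a follicle, were taken. The ratio of CCs to mural granulosa cells (MGCs) in those 26 follicles is therefore given as a description, with no test. Genes are called below by their rank by this ratio, because the deposited identifiers could not be paired with gene names from the sources used here. For the same reason the level of the defining markers of each cell type is not given, and the cell types are as labelled.

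The study took MGCs, a pool of CCs and a single oocyte from each of 30 untreated follicles, in 3 size classes called small, medium and large. Of the 26 follicles the rule used, 8 were small, 8 medium and 10 large, named S, M and L with the study's numbers. Another 3 follicles, 1 small and 2 medium, had been excluded at quality control and were not used by the rule. In the remaining small follicle, S7, the CC column held counts for only 1066 genes, and it entered no comparison. The ovaries came from a slaughterhouse, and the labels do not say which follicles shared a cow, so the p-values measure the spread between follicles and some follicles of 1 group may come from 1 animal. CC and oocyte RNA was amplified by SMART-seq2, a low-input method, whereas MGC RNA went into standard bulk libraries. Cell type and library method therefore cannot be told apart in any level that sets CCs against MGCs. In bulk libraries, fewer cells of a type and less RNA per cell cannot be told apart either.

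Cumulus and mural granulosa cells descend from the same follicular epithelium and separate when the antrum forms. Mural cells line the follicle wall and are the main source of oestradiol, whereas cumulus cells wrap the oocyte and reach it through fine projections that cross the zona pellucida and end in gap junctions. Through these contacts cumulus cells supply the oocyte with metabolites, and factors secreted by the oocyte shape the cumulus cells in turn.

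Library totals over the 26 follicles ran from 8760201 to 40180192 counts in CCs, from 26739954 to 39266980 in MGCs and from 8442938 to 53173320 in oocytes. The CC pools of S1 and S9 stood apart from the other 24. On the first component of the 200 genes in CCs, which held 38.1% of their variance, S1 scored 31.1 and S9 28.1, whereas the others lay between -13.2 and 12.8. The S1 pool also had the fewest genes with a count, 11872 against a median of 15942. The counts of called genes were also taken without these pools.

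The mean log2 ratio of the 200 genes ran from 7.57 at rank 1 to 2.19 at rank 200, with a median of 3.01, whereas the median over all 2158 candidates was 0.14. It was above 5 for 15 genes, above 4 for 34 and above 3 for 102. At the lower edge the selection was not marked by a step, since rank 200 had 2.1858 and the first gene left out had 2.1837. Of the 200 genes, 106 were higher in CCs than in MGCs in every one of the 26 follicles, 61 in 25 follicles and 33 in 24 or fewer, with a minimum of 18. Among the 5200 pairs of gene and follicle, 152 were not higher in CCs, and 69 of these came from S1 and 12 from S9. Without these 2 follicles, 160 genes were higher in CCs throughout. In 48 genes the lowest CC library was above the highest MGC library of all 26, and in 82 without S1 and S9. Among the other 1958 candidates, 18 were separated in this way over all 26 follicles, a contrast that the choice by ratio itself favours. No count without S1 and S9 was made for them, so the 82 has no background.

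Within single follicles, the median log2 ratio of the 200 genes lay between 2.24 and 4.10 in every follicle but S1, where it was 1.0. In S1, 131 of the 200 genes were higher in CCs, against 188 to 200 in the other 25 follicles. The remaining candidates were low in the S1 pool too, with a median ratio of -1.96. Taken relative to those candidates, the 200 genes stood 2.96 higher in S1, which is inside the range of 2.42 to 3.82 over the 26 follicles.

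**Figure D1:**
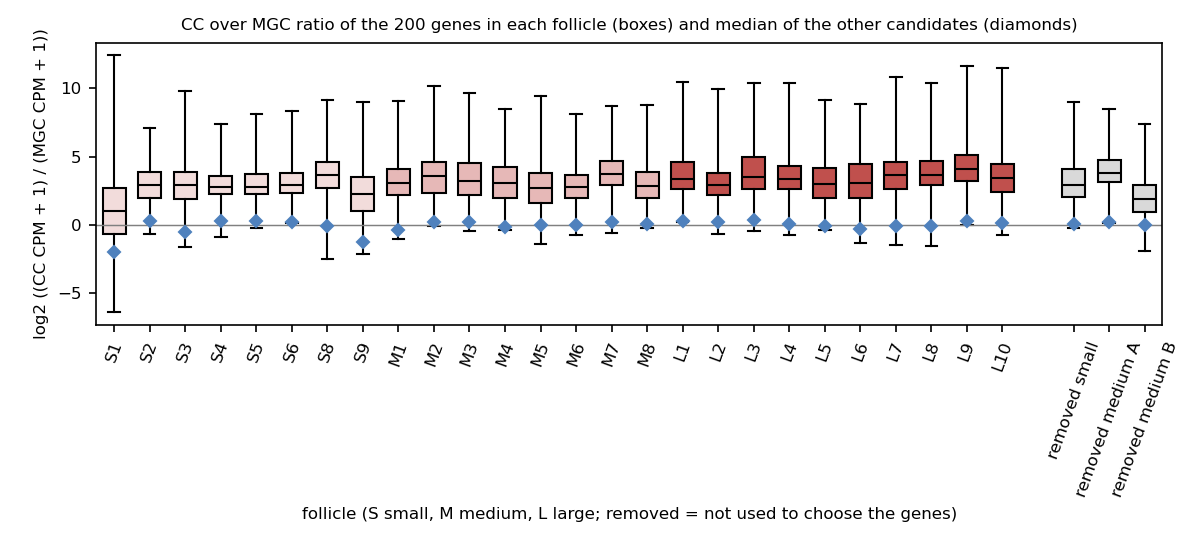
Log2 ratio of CC to MGC level (y axis, CPM + 1) of the 200 genes in each follicle (x axis), as boxes with the median and quartiles and whiskers to the lowest and highest gene, with diamonds for the median of the other 1958 candidates. The medians of the 200 genes lie above the diamonds in all 29 follicles, and S1 has the lowest box, with a median of 1.0.

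The gene with the highest ratio, ENSBTAG00000008452, had 148, 1145 and 4078 CPM in the lowest, median and highest CC library. In MGCs it had 0, 2.47 and 513 CPM, and 7 of the 26 libraries held no count, which allows a level of up to 0.0764 to 0.112 CPM by 3 counts a library over the range of MGC depths. Its ratio was positive in 25 follicles, and S1 was the exception, with 165 CPM in CCs and 513 CPM in MGCs. The levels in CCs and MGCs thus overlapped, through the small follicles. Rank 2 had a like pattern, with 223, 2307 and 6246 CPM in CCs and 0, 8.98 and 338 CPM in MGCs. Over the 26 MGC libraries the log2 levels of these 2 genes had a Pearson correlation of 0.94, against 0.71 in CCs and 0.48 in oocytes, given as a description over 26 libraries of each cell type. Rank 4 was the first gene whose groups did not overlap, with 144, 794 and 1710 CPM in CCs against 0.148, 2.28 and 36.6 CPM in MGCs.

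The most abundant of the 200 genes in CCs was ENSBTAG00000017863, rank 82 by ratio, with 10005, 31511 and 89350 CPM in the lowest, median and highest CC library. In MGCs it was also abundant but spread widely, at 144, 4608 and 21143 CPM, and in oocytes it was at 3.90, 19 and 189 CPM. The CC and MGC libraries overlapped, and in follicles M5 and L5 its MGC level was above its CC level. The next most abundant genes were ranks 33 and 8, with CC means of 21803 and 14441 CPM, MGC means of 934 and 221 CPM and oocyte means of 1426 and 1334 CPM. These 2 genes are listed at rows 27237 and 27235 of the count table and varied together over the CC libraries, with a Pearson correlation of log2 levels of 0.99 over 26 libraries. Both were highest in the CC pool of S1, at 81442 and 42143 CPM. Of the 200 genes, 19 had a CC mean of 1000 CPM or more, 74 lay between 100 and 1000, 66 between 30 and 100, and 41 under 30 CPM.

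**Figure D2:**
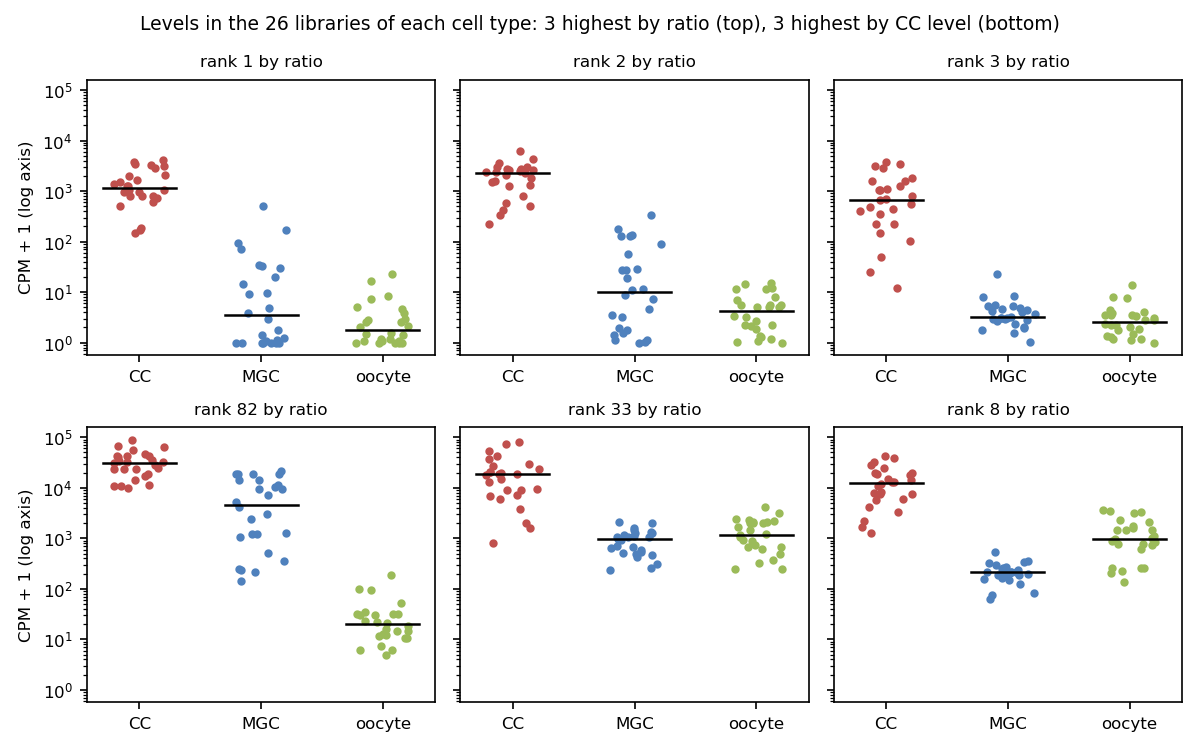
CPM + 1 on a log axis (y) in the 26 CC, MGC and oocyte libraries (x), with a line at the median, for the 3 genes highest by ratio in the top row and the 3 highest by CC level in the bottom row. Rank 1 runs from 148 to 4078 CPM in CCs and reaches 0 in MGCs, whereas rank 82 has MGC libraries up to 21143 CPM, above its lowest CC library.

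Most of the 200 genes were also read in the other cell types. The mean MGC level was under 1 CPM for 29 genes, from 1 to 10 for 83, from 10 to 100 for 67 and 100 CPM or more for 21. The mean oocyte level was under 1 CPM for 62 genes, and it was above the MGC mean for 54. A group of 16 genes averaged under 1 CPM in both MGCs and oocytes, led by rank 9, with a CC mean of 215 CPM against 0.789 CPM in MGCs and 0.307 CPM in oocytes. Rank 9 had no count in 3 CC libraries and reached 771 CPM in L9. In this group the CC means were otherwise low, with a median of 19.1 CPM over the 16 genes. Another 13 genes averaged under 1 CPM in MGCs alone, among them rank 6, with a CC mean of 221 CPM, an MGC mean of 0.234 CPM and an oocyte mean of 10.0 CPM. Another 46 averaged under 1 CPM in oocytes alone, led by rank 13, at 104 CPM in CCs and 3.96 CPM in MGCs. The remaining 125 genes were above 1 CPM in both, with a median CC mean of 145 CPM and a median MGC mean of 17.3 CPM. Some genes had almost no reads from MGCs, such as rank 20, with no count in 25 of 26 MGC libraries and a CC range of 3.51 to 66.8 CPM, and rank 48, with no count in 24 MGC libraries. Rank 48 had 0.574, 7.08 and 5468 CPM in the lowest, median and highest CC library, and its CC mean of 237 CPM was 27.4 CPM without the S1 pool.

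Together the 200 genes took 11.4% to 25.1% of all counts in CC libraries, with a median of 13.3%. In MGC libraries they took 0.656% to 4.50%, with a median of 1.60%, and in oocytes 0.248% to 1.10%, with a median of 0.50%. The highest CC share, 25.1%, was that of S1, where the 3 most abundant genes took 18.9% and the other 197 took 6.15%. The 3 most abundant genes alone took 1.65% to 18.9% of the CC counts, and the other 197 took 4.12% to 11.8%.

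The MGC libraries were divided at a share of 1%, a cut set for description. In 10 libraries the share was at most 0.882%, and in the other 16 at least 1.14%. A wider break lay between 1.36% in L9 and 1.84% in S2. Rank 82 took 0.0144% to 0.127% of the counts in the first 10 and 0.240% to 2.11% in the other 16. All the remaining genes took 0.532% to 0.859% and 0.835% to 2.39%, so the groups overlapped without rank 82. All 10 follicles that the study called healthy, a choice it made from marker levels in these same libraries, lay in the group of 16, with shares of 1.14% to 4.50%. Among them L8, at 1.14%, and L9, at 1.36%, lay below the wider break. The other 16 follicles held 10 of the low libraries and 6 of the high ones, and had a median of 0.756%. Because the follicle classes were drawn from these MGC libraries, no test was made of this difference.

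**Figure D3:**
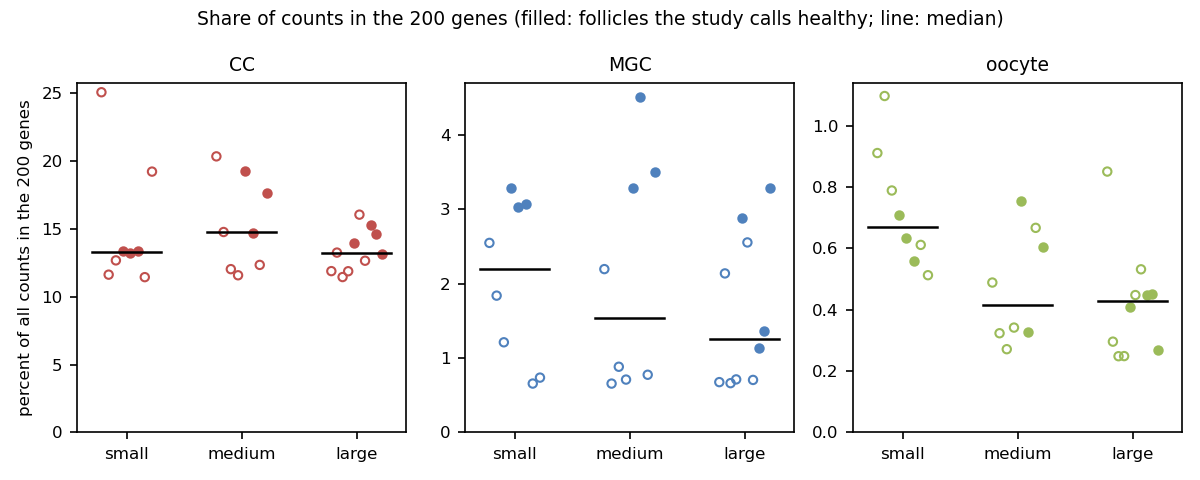
Percent of all counts that fell in the 200 genes (y axis, a separate scale for each panel) by follicle size (x axis) in CCs, MGCs and oocytes, 1 point a library, filled for follicles the study called healthy, with a line at the median. The CC shares are all above 11%, and MGC shares are up to 0.882% in 10 libraries and from 1.14% in 16.

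The share in oocytes had its highest median in small follicles, a difference that was not tested. The 200 genes took 0.512%, 0.671% and 1.10% of oocyte counts in the lowest, median and highest small follicle, 0.271%, 0.415% and 0.754% in medium follicles and 0.248%, 0.428% and 0.850% in large follicles, so the groups overlapped. Ranks 8 and 33 made up much of this, with medians of 0.383%, 0.186% and 0.150% from small to large, whereas the rest had medians of 0.287%, 0.238% and 0.233%.

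The first question that could be tested was whether the 200 genes were higher in CCs in follicles that took no part in choosing them. The 3 follicles excluded at quality control gave 3 CC and 3 MGC libraries. The CC pool of the small one and the oocytes of the medium ones, called here A and B, were the samples behind the exclusion. Of the 200 genes, 197 were higher in CCs in the small follicle, 200 in medium A and 179 in medium B, with median log2 ratios of 2.92, 3.83 and 1.91. In all 3 follicles at once, 179 of the 200 were higher, against 31.7% of the other candidates. For 161 of the 200, the lowest of the 3 CC libraries was above the highest of the 3 MGC libraries. This was not counted for the other candidates, so it has no background and is given as a description.

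In edgeR's quasi-likelihood test, 141 of the 200 genes were called higher in CCs in these 3 follicles, at a fold above 2 and a Benjamini-Hochberg adjusted p under 0.05. Of all 15021 genes tested, 803 were called in that direction, which is 5.35%. All 200 genes had a positive log2 fold change, from 0.40 to 12.9, with a median of 3.68 against 0.17 over all genes tested. Of the 20 genes of highest rank, 16 were called, and 14 of the 19 with CC means of 1000 CPM or more. ENSBTAG00000008452 had 330, 1007 and 7.02 CPM in the CCs of the small follicle, A and B, against 0.223, 5.39 and 0 CPM in their MGCs. Every CC value was above every MGC value, and the log2 fold change was 7.94 with a standard error of 2.31, at an edgeR adjusted p of 0.0627 that missed the threshold. ENSBTAG00000017863 had 22715, 17685 and 50727 CPM in CCs and 93.8, 1373 and 1391 CPM in MGCs, with a log2 fold change of 5.15, a standard error of 1.17 and an edgeR adjusted p of 0.0327.

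The call depended on which libraries were kept. Without the small follicle or without medium A, which leaves 2 follicles, edgeR called none of these genes and 0 genes in all. At a fold above 2 and an unadjusted p under 0.05, 181 and 147 of the 200 were higher in CCs. Of all genes tested, 1674 of 14828 and 1171 of 15015 passed that limit. Without medium B edgeR called 165 of the 200, and 764 of 15015 genes in all. A fit with the follicle as a replicate block called 153 of the 200 and 840 of all 15021 genes. DESeq2 called 185 of the 200, but also 2006 of the 15021 genes, and on simulated data of this size it made many false calls.

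**Figure D4:**
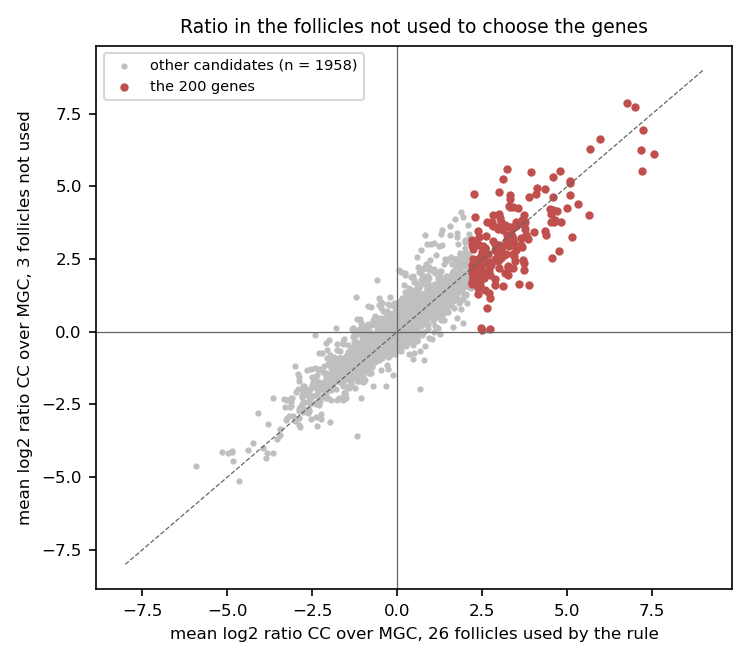
Mean log2 ratio of CC to MGC level (CPM + 1) in the 3 follicles the selection did not use (y axis) against the mean in the 26 it used (x axis), with the 200 genes in red, the other 1958 candidates in grey and a dashed line where both are equal. All 200 genes lie above 0 on the y axis, from 0.058 to 7.87.

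The next question was whether the 200 genes changed with follicle size within CCs. From small to medium follicles, edgeR called 0 of the 200 genes in CCs and 0 of 15033 genes in all, a background of 0%. At an unadjusted p under 0.05 and a fold above 2, 21 of the 200 and 1368 of all genes passed, and DESeq2 called 0 of the 200 and 36 of all genes. From medium to large follicles, edgeR again called 0 of the 200 and 0 of 15033, or 0%. Here 21 of the 200 and 674 of all genes passed the unadjusted limit, and DESeq2 called 0 of the 200 and 10 of all genes. The median log2 fold change of the 200 genes was -0.12 in the first step and 0.28 in the second, against 0.07 and -0.01 over all genes tested. Without S1 and S9, edgeR called 0 of the 200 genes in the first step and 1 in the second, rank 48, at a log2 fold change of -3.08 and an adjusted p of 0.0316, with 0 and 3 genes called of 15029 in all. The smallest edgeR adjusted p among the 200 genes over the 26 follicles was 0.303 in the first step and 0.451 in the second. CC libraries varied widely, with a median standard deviation of 1.04 in log2 level for the 200 genes over the 26 CC libraries. It was 0.85 in CCs without S1 and S9, and 0.78 over all 26 MGC libraries. The standard deviation was larger in MGCs for 80 of the 200 genes, and for 99 without S1 and S9. Among the other 1958 candidates it was larger in MGCs for 428, and for 629 without S1 and S9. Their median standard deviations over all 26 follicles were 0.90 in CCs and 0.56 in MGCs.

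In MGCs, the level of a few of these genes fell between small and medium follicles. edgeR called 3 of the 200 genes, all lower in medium follicles. Of all 14838 genes tested, 42 were called, which is 0.283%, and 39 of these 42 were lower too. ENSBTAG00000002333, rank 27, had 13.0, 32.3 and 227 CPM in the lowest, median and highest MGC library of small follicles and 1.73, 3.99 and 6.42 CPM in medium follicles. The groups did not overlap, and the log2 fold change was -4.17 with a standard error of 0.66 and an edgeR adjusted p of 0.00315. ENSBTAG00000019453, rank 13, had 0.452, 7.60 and 29.2 CPM in small and 0, 0.288 and 1.22 CPM in medium follicles. Only the lowest small follicle was within the medium range, and the log2 fold change was -4.72 with a standard error of 0.92 and an edgeR adjusted p of 0.0174. The third was rank 128, with 4.84, 29.4 and 405 CPM in small and 2.39, 5.98 and 15.4 CPM in medium follicles, where the groups overlapped and the log2 fold change was -3.37 with a standard error of 0.67 and an edgeR adjusted p of 0.0191. In CCs these 3 genes had medians of 234 and 212 CPM for rank 27, 70.4 and 79.9 CPM for rank 13 and 67.9 and 65 CPM for rank 128 in small and medium follicles.

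These calls moved with single libraries. Leaving out 1 follicle at a time gave 1 to 5 called genes, with 1 without M4, 2 without S1 or M3 and 5 without S8. Rank 27 was called in all 26 of these fits, rank 13 in 25 and rank 128 in 23. With the first 3 digits of the follicle number as a covariate, a possible batch whose meaning the labels do not state, only rank 27 was called, among 35 of 14838 genes. Without S1 and S9 the 3 genes were called again, among 29 of 14831.

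From medium to large follicles, edgeR called 0 of the 200 genes in MGCs and 0 of 14838 in all, a background of 0%. At an unadjusted p under 0.05 and a fold above 2, 28 of the 200 and 658 of all genes passed, and DESeq2 called 1 of the 200, rank 64, at a log2 fold change of -1.92, and 63 of all 14838 genes, a like share. The median log2 fold change of the 200 genes was -0.26, against -0.003 over all genes tested, and 136 had a negative value. With the first 3 digits of the follicle number as a covariate, the median was 0.26 and 136 had a positive value. The direction of this median therefore depended on the fit. Ranks 1 and 2 had medians of 6.39 and 18.4 CPM in medium and 0.0854 and 0.896 CPM in large follicles, with log2 fold changes of -3.12 and -3.27 and edgeR adjusted p of 0.441 and 0.339. Restricted to the 10 follicles the study called healthy, edgeR called 34 of the 199 genes tested, all lower in large follicles, and 1167 of 14661 genes in all.

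The last question was whether the difference between CCs and MGCs itself changed with follicle size, tested as the interaction of cell type and size class. The genes were chosen for the mean of this difference over these same follicles, not for its change. Large follicles outnumbered small ones in that mean, so the test is not fully independent of the choice. edgeR called 7 of the 200 genes, all with a larger difference in large than in small follicles. Of all 15043 genes tested, 98 were called, which is 0.651%. For 79 of these 98, the largest change between sizes was an increase too. Among the 7, rank 13 had the smallest adjusted p, 0.00256 in edgeR. Its log2 difference between CCs and MGCs was 4.88 larger in large than in small follicles, with a standard error of 0.87. For rank 27 the increase was 4.01, with a standard error of 0.74 and an edgeR adjusted p of 0.00479. In large follicles rank 27 had 33.4, 114 and 292 CPM in CCs and 0.276, 1.24 and 4.6 CPM in MGCs, so that the cell types no longer overlapped, whereas in small follicles its CC values of 153, 234 and 611 CPM overlapped its MGC values. The other 5 were ranks 128, 183, 64, 52 and 62, with increases of 4.95, 4.38, 3.49, 3.99 and 3.79 on the log2 scale.

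The MGC median of all 7 genes was lower in medium than in small follicles. Between medium and large follicles the MGC levels of ranks 13 and 183 were near 0, with medians of 0.288 and 0.277 CPM for rank 13 and 0.267 and 0.452 CPM for rank 183, and their fitted log2 changes of 0.51 and -0.16 had the opposite sign to the change of the medians. Rank 183 had CC medians of 2.64, 13.0 and 8.65 CPM from small to large. Rank 62 had MGC medians of 49.4, 13.9 and 1.85 CPM and CC medians of 132, 100.9 and 108 CPM. Rank 64 had MGC medians of 1.85, 0.966 and 0.336 CPM and CC medians of 17.4, 25.5 and 30.5 CPM.

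**Figure D5:**
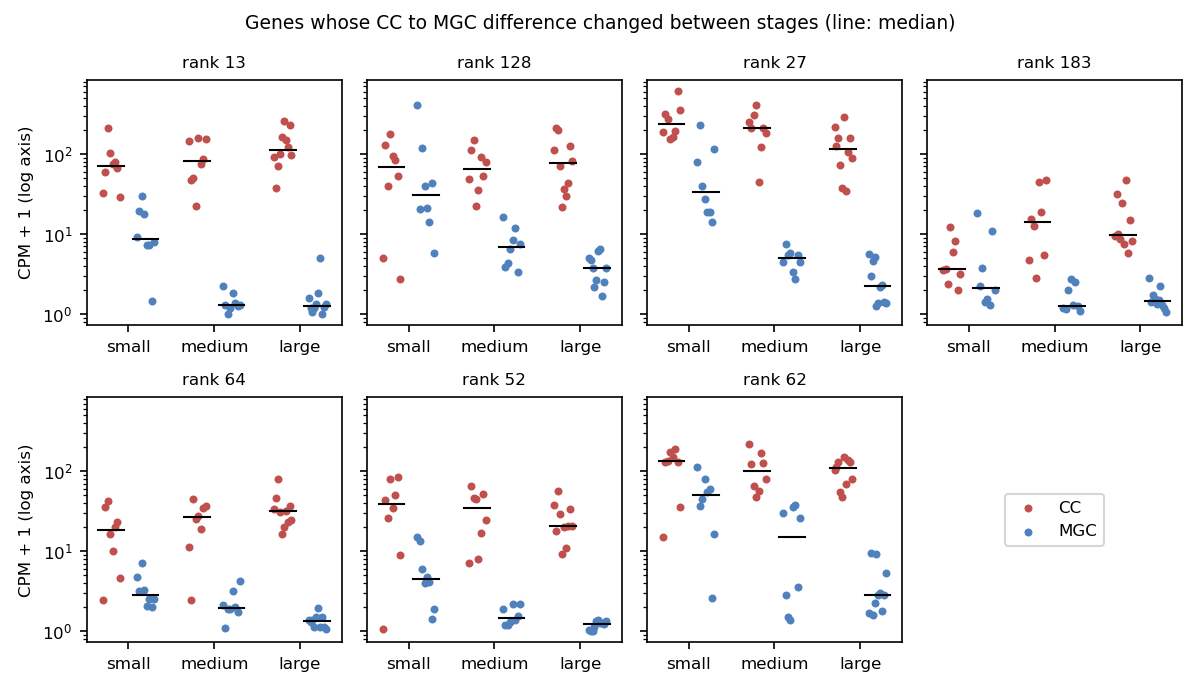
CPM + 1 on a log axis (y) in CC and MGC libraries by follicle size (x), 1 point a library with a line at the median, for the 7 genes whose CC to MGC difference changed with size. Rank 27 has MGC medians of 32.3, 3.99 and 1.24 CPM from small to large, while its CC medians are 234, 212 and 114 CPM.

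The MGC and CC libraries of a follicle come from the same animal, and with the follicle as a replicate block 4 of the 200 genes were called, ranks 13, 27, 64 and 128, among 27 of 15043 genes. Without S1 and S9 the same 4 ranks were called, among 43 of 15042, and with both changes 2 were, ranks 13 and 64, among 14. With the number prefix as a covariate 2 were called, ranks 13 and 27, among 40 genes, and with the prefix and the block 1 was, rank 27, among 18. Leaving out 1 follicle at a time gave 4 to 14 called genes among 49 to 174 in all, with 4 without S1, 12 without M1 and 14 without L6. Rank 62 was called in 8 of these 26 fits, rank 52 in 18, rank 183 in 25 and the other 4 genes in all 26.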

How the data were processed

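RNA-seq of 90 libraries (30 follicles with MGCs, CCs and an oocyte each) was analysed from 1 deposited table of raw counts per gene, which the authors made with featureCounts on the ARS-UCD1.2 genome. The submitters' processing notes name HISAT2 2.2.1, whereas the study's methods name another aligner, so the aligner is uncertain. Counting was not strand-specific as far as stated, and without molecular identifiers read counts are not molecules. The genes and the lists were chosen with earlier results of these data known. CPM used each column's total. Tests used edgeR 4.0.16 (TMM scaling, quasi-likelihood F test, Benjamini-Hochberg adjustment) in R 4.3.3 on genes above 1 CPM in at least 15 libraries of a cell type, which all 200 genes passed. Standard errors are the log2 fold change over the root of F. A call needed a fold above 2 and an adjusted p under 0.05, and DESeq2 1.42.0 was an alternative. Figures and summaries used Python 3.11.15. The scripts were tested on simulated data, where the size and interaction fits recovered most of the changed genes but in the comparison of 3 follicles edgeR made no call and DESeq2 made many false ones, so a gene not called there is not shown to be level.

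The interaction was fitted without the follicle as a block, with the blocked fit as an alternative. CC and MGC libraries of a follicle share an animal, which pairs them. Their deviations from group means, over 10907 genes, had a median correlation of 0.066 within a follicle, with a range of -0.153 to 0.409. Between follicles of the same size class the median was -0.025, and 6 of 26 CC libraries correlated best with their own follicle. Genes named in the text were the 20 highest by ratio, the 10 highest in CCs, those called in a test and those at the edge of the selection, limited to 2 identifiers in each direction because the deposited identifiers matched no gene name in the annotation used here. For that reason the planned marker and pathway lists were not run and no sequence is given.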

Additional observations from a re-analysis of the deposited data

Results flagged for a closer look

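Values were compared within each size class for the shares, ratios and leading genes reported, 36 groups in all, and 8 held a library far from the rest of its class. Chance flags about 1 in 20 groups only where values are not skewed. All 8 flags were the highest value of their class, on levels that were not logged. The number of flags is therefore not read as an excess. In MGCs, rank 1 stood far above its class in S1 (512.9 CPM, next 170.3), in M6 (91.54 CPM, next 32.85) and in L6 (18.76 CPM, next 2.942). Rank 27 did so in the MGCs of S2 (226.9 CPM, next 113.1) and the CCs of S8 (611.1 CPM, next 358). Rank 13 did so in the CCs of S3 (209.5 CPM, next 103.3) and the MGCs of L7 (4.043 CPM, next 0.8239). The 200 genes took 0.85% of oocyte counts in L1, with the next large follicle at 0.5315%.

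The change of the CC to MGC difference with follicle size passed the interaction test for 7 genes, with increases from small to large follicles, on the log2 scale, of 4.88 for rank 13, 4.947 for rank 128, 4.013 for rank 27, 4.385 for rank 183, 3.486 for rank 64, 3.994 for rank 52 and 3.793 for rank 62.

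In the CC column of S7, which was not used, 8 of the 200 genes had a count.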

How the results depend on the processing

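None of the genes called in MGCs or in the interaction changed direction under the alternatives run. Of the 200 genes, 184 were also selected with a pseudocount of 0.1, 165 with 5, 188 by the median, 173 with TMM-scaled CPM, 159 in the 10 follicles the study called healthy, 125 without the oocyte limit, 189 without S1 and S9 (chosen after seeing the data) and 193 to 199 leaving out 1 follicle. In CCs, no step gave a call under any alternative except medium to large without S1 and S9, where 1 gene, rank 48, was called. Leaving out 1 follicle at a time gave 0 in both steps in CCs and 0 in MGCs from medium to large. In MGCs from small to medium, the count of 3 became 13 with DESeq2 (1 of them higher in medium follicles, among 224 of 14838 genes), 6 in the 10 healthy follicles (2 of them higher, among 243 of 14661), 1 with the number prefix and 1 to 5 leaving out 1 follicle. From medium to large, the count of 0 became 1 with DESeq2 (63 genes in all) and 34 in the healthy follicles (1167 genes). For the interaction, the count of 7 became 29 with DESeq2 (among 833 of 15043 genes), 13 with DESeq2's size factors in edgeR (among 139), 20 in the healthy follicles (among 189 of 14987), 2 with the prefix, 4 with the replicate block, 4 without S1 and S9, 2 with both, 1 with the prefix and the block, and 4 to 14 leaving out 1 follicle. The fits without S1 and S9, and that with the prefix and the block, were chosen after seeing the data. In the 3 follicles not used for selection, the count of 141 ran from 0 to 165 leaving out 1 follicle, and the replicate block changed it by less than 1.5 times. The causes were not tested. Depth limits the genes near 0 in MGCs, where 3 counts are 0.0764 to 0.112 CPM.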
